A study of Mus musculus with 8 samples.

Results

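The transcription factors followed here mark luminal and basal epithelium of the genital tract, and their transcripts were measured in mouse seminal vesicle after acrylamide: Ehf, Elf3, Gata3, Grhl2, Foxa1, Pax2, Sox9, Klf5 and Trp63. They were chosen by gene symbol, and all 9 of 9 had a row among the 17258 genes of the deposited table. The acrylamide animals were 4 outbred male Swiss mice given acrylamide intra-peritoneally at 25 mg per kg body weight each day for 5 days, and the control animals were 4 mice of that stock given phosphate buffered saline (PBS) in the same way. All were 8 to 12 weeks old, carried no genetic alteration named in the labels, and were killed 72 h after the last injection. Acrylamide is a reactive compound used as a model reproductive toxicant, and the study asked how it alters the transcriptome of this gland. Prostate was dissected off and the fluid was pressed out before RNA was taken from whole tissue, so each library holds RNA of epithelium, muscle wall, connective tissue, vessels and immune cells together. In such tissue, fewer cells of a type and less RNA per cell cannot be told apart.

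Epithelial identity factors are DNA-binding proteins that keep the genes of one epithelial cell type switched on. FOXA1 opens chromatin for the androgen receptor and other factors, GRHL2 maintains the genes of cell junctions, the ETS factors ELF3 and EHF act in glandular epithelium, and PAX2 and GATA3 are needed for the Wolffian duct from which the seminal vesicle buds. SOX9 and KLF5 act in epithelial progenitors and in duct growth, and p63, encoded by Trp63, defines basal cells.

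Each gene of this kind belongs to a family of related genes, and long stretches of identical sequence would leave it unclear which of them a read came from. The reads were pairs of 100 bases. The 9 factors were compared with their measured paralogs except Gata6, in 32 pairs that count Ehf with Elf3 from either side. The longest identical coding run in the GENCODE vM21 transcripts (GRCm38, the same build as mm10) was 44 bases and the shortest was 10. These pairs are shown, because Elf5 and Gata2 were the paralogs with the highest levels and Sox10 gave the longest run. Capitals mark the identical run, with the flanking coding bases in lower case, read 5′ to 3′ on the coding strand.
Elf3: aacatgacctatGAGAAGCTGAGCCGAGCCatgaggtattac
Elf5: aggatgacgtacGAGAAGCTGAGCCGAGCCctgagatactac
Gata3: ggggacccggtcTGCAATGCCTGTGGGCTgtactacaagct
Gata2: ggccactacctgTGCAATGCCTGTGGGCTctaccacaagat
Sox9: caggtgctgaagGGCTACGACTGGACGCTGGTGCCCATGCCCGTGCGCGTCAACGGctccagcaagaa
Sox10: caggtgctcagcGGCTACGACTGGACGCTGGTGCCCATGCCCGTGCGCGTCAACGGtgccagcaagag
The run shared by Elf3 and Elf5 has 18 bases and lies in exon 8 of 9 of Elf3 (chr1:135254930-135254947, minus strand) and exon 6 of 8 of Elf5 (chr2:103449078-103449095, plus strand). That of Gata3 and Gata2 has 17 bases, in exon 5 of 6 of Gata3 (chr2:9863114-9863130, minus strand) and exon 4 of 6 of Gata2 (chr6:88202493-88202509, plus strand). That of Sox9 and Sox10 has 44 bases, in exon 1 of 3 of Sox9 (chr11:112782831-112782874, plus strand) and exon 3 of 5 of Sox10 (chr15:79163430-79163473, minus strand). Ehf and Elf5, which are neighbours on chromosome 2, shared no run longer than 11 bases.

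The deposited table gives 1 value per gene and treatment, a number of reads divided by the library size factors (normalised reads) and pooled over 4 mice. These values carry no spread between mice, so they and their ratios are a description with no test. A 95% counting interval was set around each log2 ratio of acrylamide over control from the approximate number of reads behind it. It covers counting error only. Values per library could be worked out for genes of low level, which among the 9 factors was Klf5 alone.

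Ehf and Gata3 were the most abundant of the factors, and Klf5 the least. Per kb of the longest annotated transcript, Ehf averaged 1023 normalised reads over both groups and Gata3 963, a 1.06-fold step. Elf3 followed with 325 and Grhl2 with 194. Pax2 with 134, Foxa1 with 128 and Sox9 with 113 lay close to each other, the steps between them being 1.04-fold and 1.13-fold. Trp63 with 43.8 and Klf5 with 9.39 closed the order. Dividing by the median transcript length put Gata3 before Ehf, and dividing by the merged exons moved Grhl2 to place 6. Elf3, Trp63 and Klf5 were within 1 place of their rank under either length. Not divided by length, Ehf ranked 214 of all 17258 genes and Gata3 350, while Trp63 ranked 6169 and Klf5 11389.

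**Figure D1:**
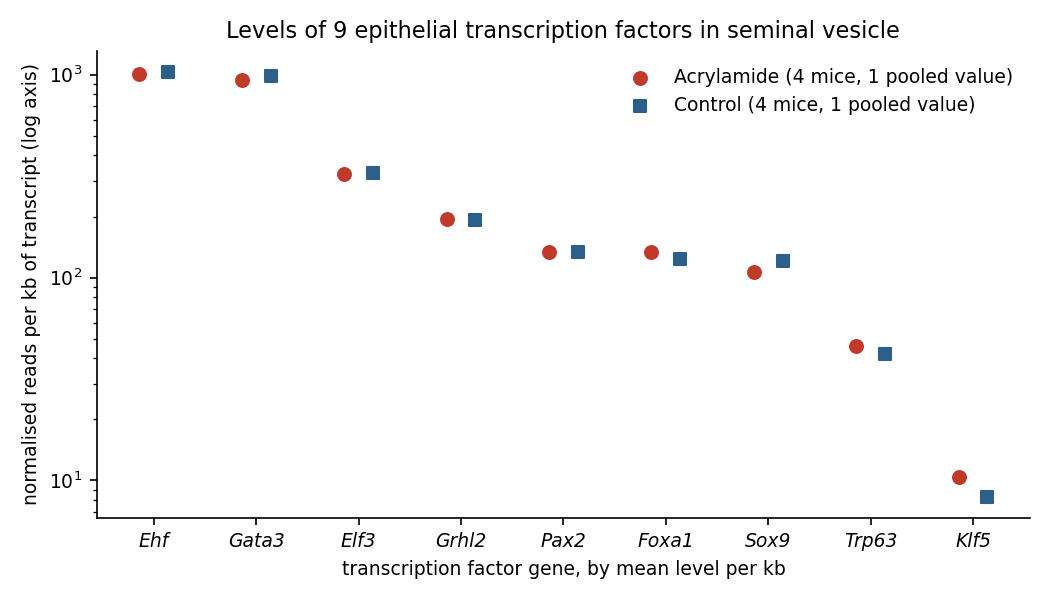
Normalised reads per kb of the longest transcript on a log axis for the 9 factors, with a circle for acrylamide and a square for control tissue (1 pooled value of 4 mice each). The levels run from 1023 for Ehf to 9.39 for Klf5 as means of both groups, and the paired symbols lie near each other at every gene.

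None of the 9 factors differed by 1.5-fold between the treatments, against 17.3% of all 17258 genes past that fold in either direction. Genes of low level pass it more easily, and among the 6759 genes with a mean of at least 200 the share was 1.02%. The 8 factors other than Klf5 belong to that level range, so that a count of 0 lies near the background. The log2 ratios of the 9 factors ran from -0.18 for Sox9 to 0.33 for Klf5, with a median of -0.0028, against 0.0080 over all genes. Their absolute log2 ratios had a median of 0.077, against 0.096 for genes with a mean of at least 200. At 1.2-fold, Klf5 alone passed, against 35.4% of all genes. That share includes genes of low level. Of the genes with a mean of at least 200, 20.7% lay as far from equal levels as Sox9, which is inside 1.2-fold.

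**Figure D2:**
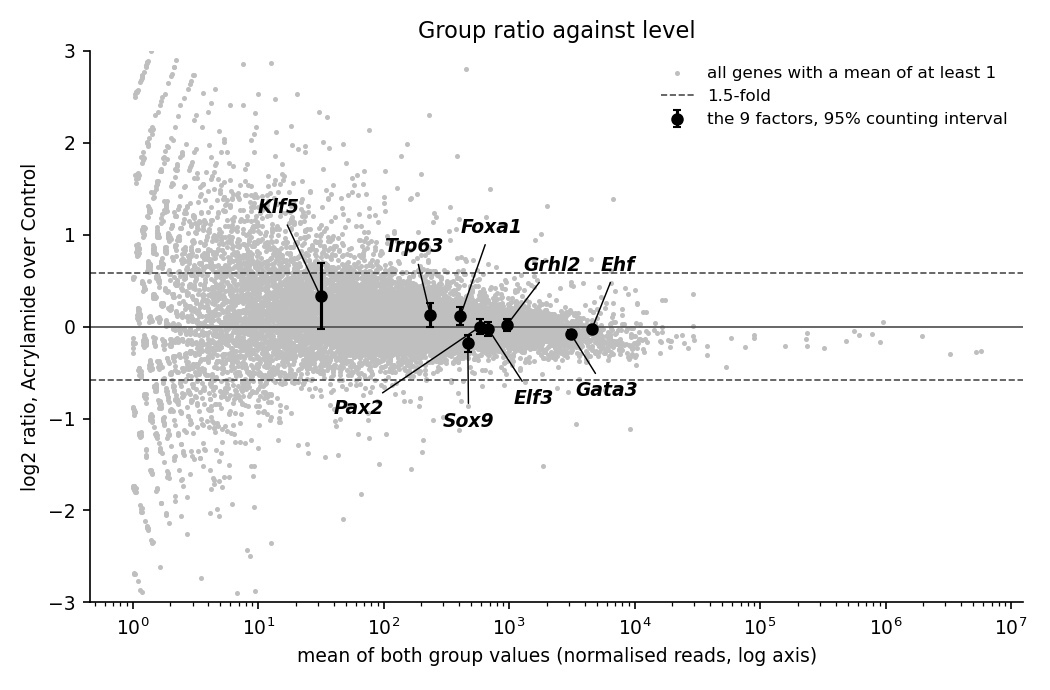
The log2 ratio of acrylamide over control against the mean of both group values on a log axis, with all genes of a mean of at least 1 in grey and the 9 factors in black with 95% counting intervals. The factors lie between -0.18 and 0.33, inside the dashed lines of 1.5-fold, and a few grey points beyond 3 or below -3 are not drawn.

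The ETS factors that act in glandular epithelium lay closest to equal levels together with Pax2 and Grhl2. Ehf (chromosome 2, 103263433 to 103303278 in mm10) had 4532 normalised reads in acrylamide tissue and 4612 in control tissue, a log2 ratio of -0.03 with a counting interval of -0.05 to 0.0043 from about 19280 and 17499 reads. Elf3 (chromosome 1, 135253575 to 135258568) had 676 and 687, a log2 ratio of -0.02 (counting interval -0.10 to 0.05). Both ratios thus differed from 1 by under 2%. Grhl2 (chromosome 15, 37233036 to 37363569) had 965 normalised reads in acrylamide tissue and 954 in control tissue, a log2 ratio of 0.02 (counting interval -0.05 to 0.08). Pax2 (chromosome 19, 44756045 to 44837871), a regulator of Wolffian duct epithelium, had 582.5 in acrylamide tissue and 583.6 in control tissue, a log2 ratio of -0.0028 (counting interval -0.09 to 0.08). For these 4 genes the counting interval included equal levels.

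Gata3, Sox9 and Foxa1 had counting intervals without 0. Gata3 (chromosome 2, 9857078 to 9890034) had 3013 normalised reads in acrylamide tissue and 3178 in control tissue, which is 5.18% lower (higher when scaled to the total of all genes), with a log2 ratio of -0.08 (counting interval -0.11 to -0.04). Sox9 (chromosome 11, 112782224 to 112787760) had 439 in acrylamide tissue and 499 in control tissue, 11.9% lower, and its log2 ratio of -0.18 (counting interval -0.27 to -0.09) was the lowest of the 9. Foxa1 (chromosome 12, 57540628 to 57546916) had 425 in acrylamide tissue and 393 in control tissue, 8.36% higher, with a log2 ratio of 0.12 (counting interval 0.02 to 0.21). These intervals leave out the spread between mice, and 58.9% of the genes with a mean of at least 200 lay as far from equal levels as Gata3. For Sox9 that share was 20.7%, and for Foxa1 it was 41.5%.

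Trp63 (chromosome 16, 25683763 to 25892102), the basal factor, had 246 normalised reads in acrylamide tissue and 225 in control tissue. Its log2 ratio was 0.13, with a counting interval of -0.00059 to 0.26 from about 1046 and 853 reads. Small exonic overlaps with other annotated genes exist for 3 of the factors: Gata3 shares 77 bases with 9230102O04Rik on its own strand and 155 with the antisense gene Gm13256, Grhl2 shares 169 with the antisense gene Gm16136, and Elf3 shares 162 with the antisense gene Gm26642. The library is not described as stranded, so reads from such stretches cannot be told apart.

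The sign of these small ratios depended on the scaling. With both groups set to the same total of all genes, every log2 ratio moved up by 0.17, and 8 of the 9 factors lay above 0 in place of 4. Foxa1, Trp63 and Klf5 stayed above 0 and Sox9 below 0 in each of the 5 alternatives of scaling, centring, pseudocount and length trend, though the log2 ratio of Sox9 was only -0.0078 when scaled to the total of all genes, and Gata3 was below 0 except when scaled to the total of all genes. No factor passed 1.5-fold in any of them.

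Klf5 (chromosome 14, 99298691 to 99315036), a zinc finger factor of proliferating epithelial cells, is the member for which single libraries could be read. Its group values were 35.0 normalised reads in acrylamide tissue and 27.9 in control tissue, a log2 ratio of 0.33 with a counting interval of -0.03 to 0.69. Within a search window around the control value, 13 sets of whole reads matched its mean. Of these, a single set also gave the ratio between the groups, the next best missing it by 1.88%. The 4 acrylamide libraries held 43, 31, 46 and 29 reads, or 38.6, 28.5, 44.8 and 28.3 normalised reads. The 4 control libraries held 32, 30, 12 and 32 reads, or 31.4, 31.1, 13.0 and 36.1 normalised reads. The means were 35.0 ± 8.08 in acrylamide tissue and 27.9 ± 10.2 in control tissue (SD, n = 4 each), and the groups overlapped: 2 acrylamide libraries lay above all control libraries, and 1 control library, at 13.0, lay below all others.

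On log2(normalised reads + 1), the difference of acrylamide minus control for Klf5 was 0.38 with a standard error of 0.36 (exact two-sided permutation test, p = 0.43). The smallest p that 4 against 4 allows is 0.0286. Without the control library of 13.0 the difference was 0.07 (exact permutation p = 0.77). Across the 2670 genes with reads per library and a mean of at least 5, limma gave an adjusted p of 0.74 for Klf5, and 0% of these genes passed an adjusted p of 0.1, while 214 had an unadjusted p under 0.05. The study's own DESeq2 test called some genes of this level, so the 0% belongs to this limma fit. Klf5 varied more than most genes of its level among control libraries, with an SD of 0.64 on the log2 scale against a median of 0.35 over 901 genes with a mean of at least 20. Among acrylamide libraries its SD was 0.32, against a median of 0.38.

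**Figure D3:**
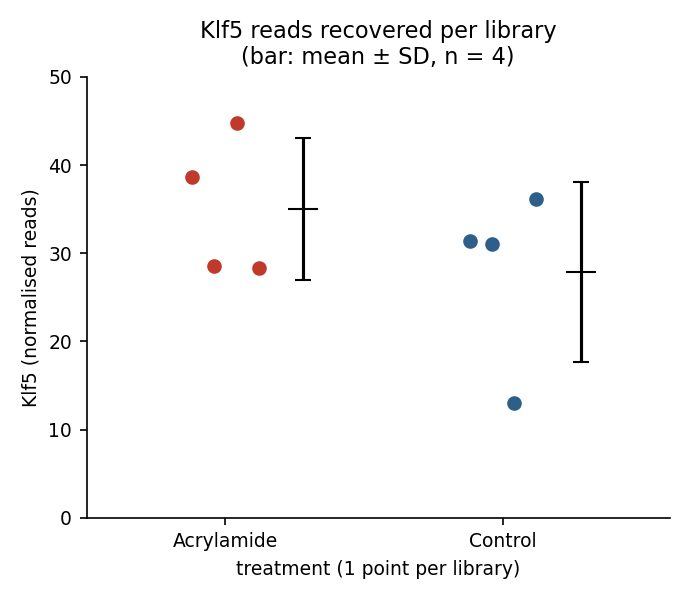
Normalised Klf5 reads in each of the 4 acrylamide and 4 control libraries, with the mean and SD of each group as a black bar. The acrylamide libraries lie between 28.3 and 44.8 and the control libraries between 13.0 and 36.1, so the groups overlap.

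Genes of the lists whose reads per library were most like those of Klf5 were Prrx2, a homeobox gene of mesenchyme, with a Pearson r of 0.65, Cd3d, a chain of the T cell receptor complex, with 0.65, and Zbtb7c with 0.58, of 40 genes compared over 8 libraries. These are sparse reads that share library and depth, and the values are given as a description. Of the Cd3d reads, 22 were in a single acrylamide library and at most 6 in any other.

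Foxa1, Pax2 and Sox9 each held nearly all the transcript of their family, per kb. Foxa1 made up 99.9% of the FOXA factors in acrylamide tissue and 99.8% in control tissue. Its paralogs were almost unread: Foxa2 had 1 read in 1 acrylamide library and none elsewhere, and Foxa3 had 1 read in 1 acrylamide library and 1 in each of 2 control libraries. Pax2 made up 95.6% of PAX2, PAX5 and PAX8 transcripts in acrylamide tissue and 94.3% in control tissue. Pax8, its partner in the nephric duct, had 24, 12, 26 and 26 reads in acrylamide libraries against 23, 22, 36 and 22 in control libraries (limma log2 difference -0.41, standard error 0.31, adjusted p = 0.72), and the groups overlapped. Pax5, a factor of B cells, had no read in acrylamide libraries and 3 in all control libraries together. Sox9 made up 96.0% of the SOXE factors in acrylamide tissue and 95.5% in control tissue, and Sox8 and Sox10 had between 3 and 12 reads in every library of either group.

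Ehf, Grhl2, Gata3 and Trp63 each shared their family with an abundant paralog. Elf5, the ETS factor next to Ehf on the chromosome and known from mammary alveoli, took 44.5% of the 4 epithelial ETS genes in acrylamide tissue and 44.4% in control tissue. Ehf took 35.2% in acrylamide tissue and 34.0% in control tissue, and Elf3 11.2% and 10.8%. Spdef, the ETS factor of secretory and prostate epithelium, took 9.11% in acrylamide tissue and 10.8% in control tissue, and its log2 ratio of -0.32 was the lowest of the 4. Grhl2 took 65.3% in acrylamide tissue and 64.0% in control tissue, the rest being Grhl1 with a log2 ratio of -0.07. Grhl3 has no row. Gata2, a partner of the androgen receptor in prostate cells, exceeded Gata3: it took 77.3% of the GATA factors in acrylamide tissue and 73.0% in control tissue, with a log2 ratio of 0.26, while Gata3 took 22.6% and 27.0%. Gata4, Gata5 and Gata6 together made up under 0.1% of the family in either group, with at most 11 reads in a library. Trp63 took 29.0% of the p53 family in acrylamide tissue and 27.1% in control tissue, below Trp53, the tumour suppressor, with a log2 ratio of -0.0018, and Trp73 stayed at 7 reads or fewer in each library.

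Klf5 was a minor KLF factor in this tissue, at place 12 of 15 measured, with 0.76% of the family per kb in acrylamide tissue and 0.62% in control tissue. Klf2, known from endothelium and T cells, led with 24.0% in acrylamide tissue and 25.7% in control tissue, followed by Klf6 with 20.4% and 18.3% and Klf15 with 14.8% and 15.9%. Klf10, Klf9, Klf16, Klf3, Klf12 and Klf11 had log2 ratios between -0.05 and 0.15. Klf13 with 0.46 and Klf4, a factor of barrier epithelium, with 0.30 had larger ones at places 7 and 8. Klf8 had 22, 18, 21 and 23 reads in acrylamide libraries against 9, 21, 8 and 8 in control libraries, with 1 control library inside the acrylamide range (limma log2 difference 0.77, standard error 0.34, adjusted p = 0.57). Klf7 and Klf1 lay at places 14 and 15, below Klf5 per kb.

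**Figure D4:**
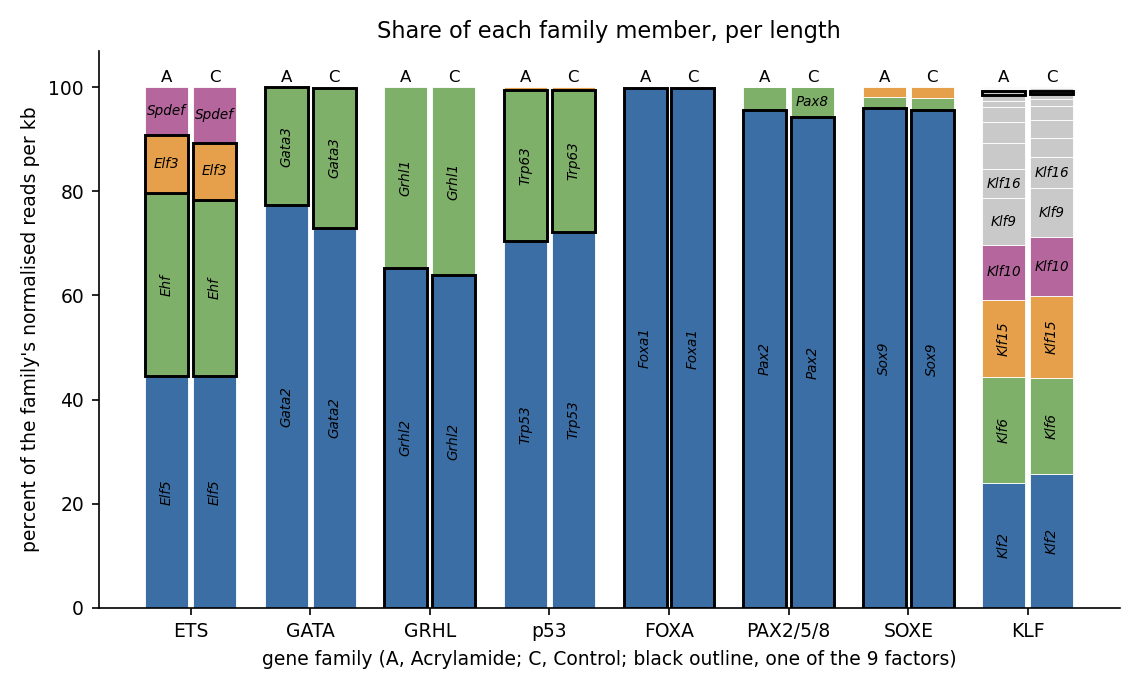
Percent of each family's normalised reads per kb held by each measured gene, with acrylamide (A) left of control (C) in every family and the 9 factors outlined in black. Foxa1 (99.9% and 99.8%), Pax2 and Sox9 fill their families, Ehf, Gata3, Grhl2 and Trp63 share theirs, and Klf5 is the thin outlined band at the top of its family (0.76% and 0.62%).

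Other transcription factors of epithelium and urogenital ducts had small ratios where their mean was at least 50. Of 52 listed, 50 had a row and 32 had a mean of at least 50, of which 16 had a log2 ratio above 0 and 16 below, with a median of 0.0053. Scaled to the total of all genes, 30 of the 32 lay above 0 (median 0.18), and 22 did so without the Svs genes. None of the 32 passed 1.5-fold, against 2.18% of all genes of that level. Among all 50, which include genes of low level, 4 were past 1.5-fold upward and 2 downward, against 17.3% of all genes in either direction. The most abundant were Tbx3, a T-box factor of ducts and glands, with 7075 normalised reads in acrylamide tissue and 6437 in control tissue, Bhlha15 (Mist1), a factor of secretory cells, with 4779 and 5088, Tbx2 with 3651 and 3442, and Xbp1, a regulator of the secretory pathway, with 3034 and 3398. The largest log2 ratios among the 32 were 0.29 for Id1, a target of BMP signalling, -0.27 for Sox4 and -0.22 for Nr2f6.

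Among the genes that work with Pax2 in the nephric and Wolffian duct with a mean of at least 50, Ret had the largest ratio. This receptor of GDNF had 162 normalised reads in acrylamide tissue and 78.4 in control tissue, a log2 ratio of 1.04 with a counting interval of 0.85 to 1.24, and was the only 1 of these 10 past 1.5-fold, against 2.18% of all genes of that level. Bmp7, a secreted growth factor, had 192 and 198 normalised reads in acrylamide and control tissue, and Fgfr2, a receptor of fibroblast growth factors, had 396 and 427. Wnt4 (log2 ratio 0.19) and Wt1 (0.21) followed Ret in size. In all, 6 of the 10 had a log2 ratio above 0 and 4 below, with a median of 0.08, while all 10 lay above 0 when scaled to the total of all genes (median 0.26) and 8 without the Svs genes.

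Junction and splicing genes listed as linked to GRHL2 and OVOL factors were mostly below control by a small margin. That side turned with the scaling. Scaled to the total of all genes, 18 of 21 lay above 0 and the median was 0.12. Without the Svs genes, 11 of 21 lay above 0. Of 21 genes with a mean of at least 50, 18 had a log2 ratio below 0 and 3 above, against 53.6% below 0 among all genes of that level, and the median was -0.06. None passed 1.5-fold, against 2.18% of all genes of that level. Spint2, a protease inhibitor of epithelium, had 7642 normalised reads in acrylamide tissue and 8795 in control tissue (log2 ratio -0.20), Cldn3, a tight junction protein, 2564 and 3086 (-0.27), and Cldn7 776 and 919 (-0.24). Epcam, an epithelial adhesion protein, had 1796 in acrylamide tissue and 2005 in control tissue (-0.16), and Prom2 had 3395 and 3406 (-0.0050).

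Luminal markers, which share genes with that list, lay mostly below 0 too: 12 of 13 had a log2 ratio below 0, with a median of -0.10. Among all genes with a mean of at least 50, 53.6% lay below 0. When scaled to the total of all genes, 10 of the 13 lay above 0 (median 0.08). None passed 1.5-fold, against 2.18% of all genes of that level, so that a count of 0 lies near the background. The keratins Krt8 (log2 ratio -0.21), Krt18 (-0.16) and Krt19 (-0.04) belonged to them, and Cd24a, the most abundant, had 16438 normalised reads in acrylamide tissue and 16454 in control tissue. The marker sum was 45054.5 in acrylamide tissue and 47703.6 in control tissue, and no listed luminal marker was at 0. All 12 seminal vesicle secretory genes also had log2 ratios below 0, against the same 53.6%, with a median of -0.15. When both groups were set to one common total, most of which comes from these very genes, 8 of the 12 lay above 0.

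Basal markers lay on both sides of 0, but 15 of 17 lay above it when scaled to the total of all genes (median 0.25). Of 17 with a mean of at least 50, 10 had a log2 ratio above 0, like Trp63, and 7 below, with a median of 0.08, against 46.4% above 0 among all genes of that level. Krt5, the basal keratin, had 756 normalised reads in acrylamide tissue and 694 in control tissue (log2 ratio 0.12). Krt17, a keratin of stressed and basal epithelium, had 114 and 60.2 (0.92) and was the only 1 of the 17 past 1.5-fold, against 2.18% of all genes of that level. Sfn (0.46), Itga6 (0.41) and Dst (0.34) lay above 0, while Perp (-0.31) lay below. The sum over all 19 basal markers with a row was 7795.37 in acrylamide tissue and 8031.61 in control tissue, of which Perp alone held 2463 and 3047. Dsg3 has no row.

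Factors that oppose epithelial identity and markers of the other cells of the wall lay mostly above 0, their medians under every alternative scaling too. Of 6 mesenchymal factors with a mean of at least 50, 5 had a log2 ratio above 0, with a median of 0.15: Zeb1, a repressor of epithelial genes, had 165 normalised reads in acrylamide tissue and 144 in control tissue (log2 ratio 0.19), Zeb2 74.2 and 63.6 (0.22), and Prrx1 165 and 138 (0.26). Tcf4 (-0.05) and Tcf3 (0.03) lay near equal levels. Smooth muscle markers had log2 ratios above 0 in 10 of 10 genes, with a median of 0.34, fibroblast markers in 10 of 12 with 0.26, endothelial markers in 8 of 10 with 0.30 and macrophage markers in 10 of 12 with 0.29, against 46.4% of all genes of that level. Their summed levels were 78844.6 in acrylamide tissue and 63255.5 in control tissue for smooth muscle, 15227.7 and 13759.6 for fibroblasts, 1528.1 and 1267.47 for endothelium, and 2332.87 and 1839.96 for macrophages. None of these listed genes was at 0. Of these wall markers with a mean of at least 50, 4 were past 1.5-fold, against 2.18% of all genes of that level: Actg2, a smooth muscle actin, with 7778 and 5100 normalised reads, Vwf, of endothelium, with 143 and 92.5, and the macrophage and leukocyte genes Lyz2 with 518 and 306 and Ptprc with 125 and 81.6, in acrylamide and control tissue. These markers are measured in the same bulk libraries as the 9 factors, and their part in the factors' ratios was not tested.

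**Figure D5:**
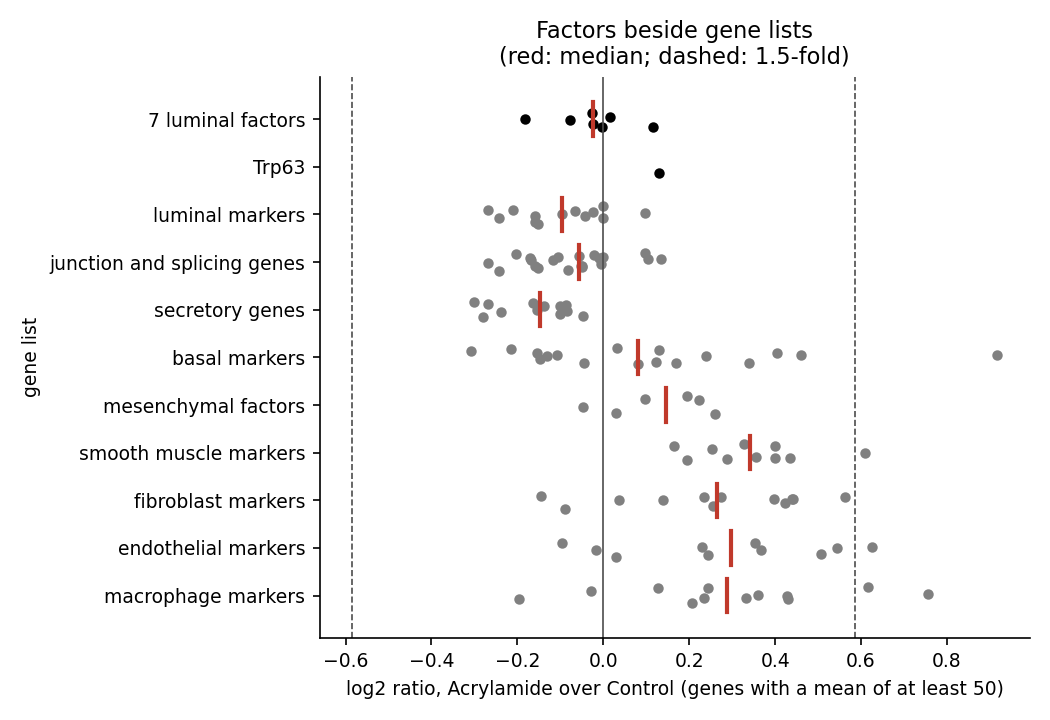
Log2 ratios of acrylamide over control for genes with a mean of at least 50, with 1 point per gene, black for the factors (7 luminal ones, Klf5 being below that mean, and Trp63) and grey for the other lists, and a red bar at the median of each list. Luminal, junction and secretory genes lie mostly below 0 (medians -0.10, -0.06 and -0.15, which turn above 0 when scaled to the total of all genes), and smooth muscle, fibroblast, endothelial and macrophage markers mostly above (0.34, 0.26, 0.30 and 0.29).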

How the data were processed

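Poly(A) RNA of 8 seminal vesicles was sequenced by the authors on the DNBSeq platform as pairs of 100 bases, filtered with SOAPnuke, mapped to mm10 with Hisat2, extended by predicted genes (StringTie, Cuffcompare, CPC), counted with RSEM and compared with DESeq2. The signal columns, as deposited by the authors, hold 1 value per gene and treatment as reads divided by size factors (normalised reads). Their mean over both treatments equals the mean of the 8 libraries, and the division between treatments follows the fitted fold. Other columns hold the authors' fold changes and p-values and were not used.

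Log2 ratios were computed from the 2 values, and approximate reads as each value times the sum of its group's size factors, which were read from the lowest levels (0.886 to 1.11). Whole reads per library were searched in genes with a mean up to 37.5 and found for 6077 of 6178 (98.4%), holding 39750 to 66943 reads a library. For genes with a mean over 30, the level of Klf5, they were found for 293 of 388 (75.5%). Total depth is not given by the table. Libraries are numbered by size factor and cannot be matched to mice. The labels do not describe mice of a group further, so p-values measure the spread between these samples. DESeq2 and edgeR were not run, since they need counts of all genes, and reads per library could be recovered for genes of low level only. Reads per library were compared on log2(normalised reads + 1) by the exact permutation test over 70 divisions for Klf5, and by limma 3.58.1 (R 4.3.3) over 2670 genes with a mean of at least 5, and the search for reads and the limma fit were checked on simulated data. Transcript lengths came from GENCODE vM21.

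Named genes are the 9 factors, their measured paralogs, of every other list up to 4 of the highest mean and up to 3 of the largest ratio among means of at least 50, and up to 3 genes most like Klf5, except that a few genes this rule selects are not reported here. The factors and lists were chosen with earlier results of these data known. Alternatives were other scalings, pseudocounts, fold thresholds, lengths, minimum levels and libraries left out. Python 3.11.15 was used with numpy, pandas, scipy, numba, statsmodels and matplotlib.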

Additional observations from a re-analysis of the deposited data

How the results depend on the processing

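No factor passed 1.5-fold under the 3 other scalings, a pseudocount of 5 or removal of the trend with transcript length, while 1 (Klf5) passed at 1.2-fold and at the threshold between. The median log2 ratio of the 9 factors moved to 0.17 when both groups were scaled to the total of all genes. The share of genes past 1.5-fold was 2.18% for genes whose mean reached 50, against 17.3% among all genes. Per median transcript length, the most abundant factor exceeded the least by 599.6-fold, against 109-fold per longest transcript. For Klf5, the log2 difference was 0.19 (exact permutation p = 0.77) with reads scaled to the total of recovered reads, and leaving out 1 library in turn gave 0.07 to 0.54 (exact permutation p from 0.29 to 0.83), the lowest without the control library of 13.0 normalised reads. With limma, 0 of 2670 genes passed an adjusted p of 0.1, with pseudocount 0.5, with no minimum and with a minimum of 10 too, and leaving out 1 library gave 0 to 2 genes. The 2, without control library 1, were BGI_novel_G000668 and Samd11, named after their values were seen. No paired analysis was possible because the columns hold treatments, and the recovered libraries cannot be matched to replicate numbers.

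The limits are that 8 of the 9 factors have no values per mouse, that counting intervals leave out biological spread, and that recovered reads exist for genes of low level only.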

Other observations

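Markers of neighbouring organs and of nerve were also read. Of 12 epididymis and deferent duct markers, 8 had a row and none reached a mean of 50; Defb48, the most abundant, had 5.62 normalised reads in acrylamide tissue and 7.06 in control tissue. Of 12 prostate markers, 9 reached a mean of 50, of which 4 had a log2 ratio above 0 and 5 below, while 8 lay above 0 when scaled to the total of all genes. Tgm4, a transglutaminase of the coagulum, had 28432 normalised reads in acrylamide tissue and 31430 in control tissue, and Pbsn (probasin) had 10922 and 12107. Mmp7, a matrix protease of glandular epithelium, was the only 1 of the 9 past 1.5-fold, against 2.18% of all genes of that level. It had 335 normalised reads in acrylamide tissue and 612 in control tissue (log2 ratio -0.87, counting interval -0.96 to -0.77). Among Schwann cell markers, Mbp had 180 in acrylamide tissue and 174 in control tissue, and Erbb3, also an epithelial receptor, had 969 and 971. Of T cell and innate lymphoid markers, Rora had a log2 ratio of 0.08, and Lck had 80.8, 9.19, 13.6 and 27.3 normalised reads in acrylamide libraries against 14.7, 11.4, 11.9 and 19.2 in control libraries (limma adjusted p = 0.72). The acrylamide library at 80.8 lay far above all others, and that at 27.3 also lay above every control library. Those at 9.19 and 13.6 did not.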
